A study of Mus musculus with 6 samples.

Results

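Serum response factor (Srf) and its cofactors were examined in differentiated C3H10T1/2 cells, a mouse mesenchymal line. The genes were chosen by their symbols: Srf, the myocardin-related coactivators Mrtfa and Mrtfb, the ternary complex factors Elk1, Elk3 and Elk4, and Scai, a repressor of the MRTFs. All 7 had a row among the 16423 gene symbols of the deposited table, and all 7 were among the 10341 genes abundant enough to test. They were picked from this pathway with the fold changes of the same contrast already known, so their values and calls are a description, and no p-value is given for them.

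At confluence all cells were driven towards fat cells for 2 days in a mix of insulin (850 nM), triiodothyronine (1 nM), rosiglitazone (1 µM), dexamethasone (1 µM), indomethacin (125 nM) and 3-isobutyl-1-methylxanthine (0.5 mM). They then spent 2 days with only the first 3 of these, at unchanged doses. On day 4 the siNC group received a control siRNA and the siYBX1 group received siRNAs against Ybx1, which encodes a nucleic acid-binding protein of the cold-shock family. The labels give their genotypes as WT and YBX1 knockdown. RNA was taken 48 h later, with 3 libraries in each group. The knockdown was made in 1 cell line and is partial, and the labels do not say whether the replicates were separate cultures, so all errors measure the spread between these libraries.

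SRF is a MADS-box transcription factor that binds a short DNA element called the CArG box. It works with coactivators of different kinds at that element. The MRTFs are held by monomeric actin and enter the nucleus when actin polymerises, where they drive contractile and cytoskeletal genes. The ternary complex factors are ETS-domain proteins that are phosphorylated by ERK and drive immediate early genes, and both kinds compete for the same face of SRF. In mesenchymal cells a shift of MRTFs into the nucleus is known to favour a contractile over a fat cell fate. The Srf gene is itself an SRF target.

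The values are FPKM, counts scaled to gene length and to library size, and whole reads could be recovered from them. The recovered totals lay between 31957411 and 35410308 reads per library. Ybx1 fell from 133 ± 2.98 to 62.9 ± 4.50 FPKM (SD, n = 3 each), 47.3% of the control level. The control library siNC replicate 1 stood apart, with a chi-square per gene of 19.9 and 23.2 against the other controls. Between those controls it was 4.64, and it was 8.36 to 11.0 among the siYBX1 libraries. Fat cell markers were abundant: 12 of them summed to 3074 FPKM in siNC replicate 1 and to 3411 to 3934 FPKM in the other 5 libraries, led by Fabp4 and Adipoq. The brown fat marker Cox8b stood at 113 ± 16.7 FPKM and Cidea at 21.2 ± 2.08 FPKM (SD, n = 3) in siNC. Of 8 thermogenic markers 5 lay below 1 FPKM on average, among them Ppargc1a and Prdm16. In the fit across all genes (limma, adjusted p below 0.05) 3 of 11 tested fat cell markers and 2 of 5 tested mesenchymal progenitor markers were called lower in siYBX1, against 11.1% of all tested genes. At an unadjusted p below 0.05 (limma) 6 and 4 of them were lower, against 1969 of all 10341 tested genes. With voom on recovered reads 4 fat cell and 2 progenitor markers were called lower, against 1390 of 12177 genes. None of either list was called higher (1 fat cell marker at an unadjusted p below 0.05, and 0 with voom on recovered reads), against 9.54% of all tested genes.

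The promoter of Srf is shown first because it carries the element that its own protein binds. The sequence is the 250 bases before the RefSeq start site (GRCm38.p6, chr17:46556163-46556412, minus strand), 5′ to 3′. Capitals mark exact CArG boxes, defined here as 2 C, 6 bases that are each A or T, and 2 G, an element that reads alike on both strands.
Srf: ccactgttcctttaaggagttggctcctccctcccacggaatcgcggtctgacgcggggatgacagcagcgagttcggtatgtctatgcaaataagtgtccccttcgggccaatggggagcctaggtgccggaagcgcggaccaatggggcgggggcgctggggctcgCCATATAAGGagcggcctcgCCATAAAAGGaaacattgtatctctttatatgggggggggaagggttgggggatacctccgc

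The boxes begin 82 and 62 bases before the start site. Promoter windows of 300 bases, from 250 before to 50 after the start, were available for all 7 genes. Srf was the only gene of the 7 with an exact box in any window. Such a box was found in 535 of 32851 windows in the RefSeq table (1.63%), and 6 windows held 2 or more. The core bound by ETS-domain factors such as the ELK proteins, GGAA or its reverse complement TTCC, was present for all 7 genes. It was also present in 96.0% of all windows, so these 4 letters set no promoter apart. The promoters come from another build than the GRCm39 of the processing notes, and a match is a description of letters only.

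Srf mRNA was higher in every siYBX1 library than in any control library. It measured 13.0, 11.3 and 11.0 FPKM in siNC replicates 1 to 3 and 17.3, 17.4 and 18.6 FPKM in siYBX1 replicates 1 to 3. The highest control was siNC replicate 1, the library that stood apart, and the groups did not overlap. The means were 11.8 ± 1.09 and 17.8 ± 0.699 FPKM (SD, n = 3 each), a ratio of 1.51. On the log2(FPKM + 1) scale, which slightly understates the change of genes at this level, the difference was 0.56 (SE 0.07, 95% interval 0.41 to 0.71). Of the 10341 tested genes 68 had a larger one. Without siNC replicate 1 it was 0.63. Between 1724 and 2762 reads stood behind each of the 6 values.

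Neither MRTF gene passed the threshold. Mrtfa (MRTF-A) measured 12.3, 10.2 and 11.4 FPKM in siNC replicates 1 to 3 and 10.9, 12.6 and 11.5 FPKM in siYBX1 replicates 1 to 3. The groups overlapped, and the log2 difference was 0.05 (95% interval -0.12 to 0.22), with a sign that was negative in 3 of 14 alternatives. Those were the scaling to TPM, which brings the length-scaled values of every library to the same sum, and the omission of siNC replicate 2 (-0.02) or siYBX1 replicate 2. Mrtfb (MRTF-B), the less abundant partner, measured 5.77, 4.95 and 5.26 FPKM in siNC and 4.38, 4.63 and 5.32 FPKM in siYBX1. Here too the groups overlapped, at a log2 difference of -0.13 (95% interval -0.31 to 0.04), which was -0.08 without siNC replicate 1. Over the 14 alternatives it lay between -0.20 and -0.06. Mrtfa was 2.12 ± 0.0615 times as abundant as Mrtfb in siNC and 2.46 ± 0.281 times in siYBX1 (SD, n = 3 each), and these ratios overlapped. These are mRNA levels: where the MRTF proteins lie in the cell was not measured.

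Scai, which binds MRTFs and represses them, was the least abundant of the 7. It measured 2.55, 3.09 and 2.68 FPKM in siNC and 2.23, 2.52 and 2.33 FPKM in siYBX1. All 3 knockdown values lay below all 3 control values, by a narrow margin. The ratio of means was 0.850, and the log2 difference of -0.17 (95% interval -0.33 to 0.0013) did not pass the threshold. Without siNC replicate 2, the highest control, it was -0.11. Over the 14 alternatives it lay between -0.24 and -0.10, and it was called in none.

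Among the ternary complex factors Elk4 was lower in siYBX1, while Elk1 and Elk3 did not pass. Elk4 (SAP-1) measured 9.83, 9.52 and 9.46 FPKM in siNC and 8.55, 7.21 and 8.53 FPKM in siYBX1. The groups did not overlap, and siYBX1 replicate 2 was the lowest library. The mean went from 9.60 ± 0.198 to 8.10 ± 0.769 FPKM (SD, n = 3 each), a ratio of 0.843 and a log2 difference of -0.22 (SE 0.07, 95% interval -0.38 to -0.07). This call is near the threshold: it was lost in 10 of 14 alternative settings, among them the omission of each of the 6 libraries in turn, with log2 differences between -0.26 and -0.15.

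Elk1, the best studied of these factors, measured 11.6, 10.2 and 10.5 FPKM in siNC and 10.6, 9.49 and 9.81 FPKM in siYBX1. Its groups overlapped (log2 difference -0.10, 95% interval -0.25 to 0.04), and without siNC replicate 1, its highest library, the difference was -0.06. Over the 14 alternatives it lay between -0.16 and -0.06. Elk3 (Net), which is known as a repressor until ERK phosphorylates it, was the most abundant of the 7 in siNC. It measured 14.1, 12.4 and 13.1 FPKM in siNC and 12.4, 14.1 and 13.0 FPKM in siYBX1, nearly the same range. Its log2 difference was -0.01 (95% interval -0.15 to 0.14), and its sign changed under other scalings, from -0.06 with TPM to 0.04 after a correction for gene length or without siNC replicate 1.

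Of the 7 genes, then, 1 was called higher and 1 lower. Across all tested genes 20.6% were called, 9.54% higher and 11.1% lower, so a count of 2 in 7 says nothing about the group. The share called was lower without siYBX1 replicate 1 (1201 genes) or siYBX1 replicate 2 (1305 genes), against 2132 with all libraries. With each library rescaled to TPM, 662 genes were called higher and 1573 lower, against 987 and 1145. The groups did not overlap for 3 of the 7 genes (Srf, Elk4 and Scai), and for 40.9% of all tested genes. The median log2 difference was -0.10 over the 7 genes and -0.01 over all tested genes. Without siNC replicate 1 the median over the 7 genes was -0.06. Longer genes were lower in siYBX1 as a whole, and 6 of the 7 fall in the upper 2 of 5 equal length groups. The median was -0.07 in the longest group, which holds Mrtfb and Scai. It was -0.04 in the group before, which holds Srf, Mrtfa, Elk3 and Elk4, and -0.01 in the middle one, with Elk1. The part of length in the lower values was not tested beyond that correction, after which Mrtfb stood at -0.06, Scai at -0.10, Elk4 at -0.19 and Srf at 0.59.

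**Figure D1:**
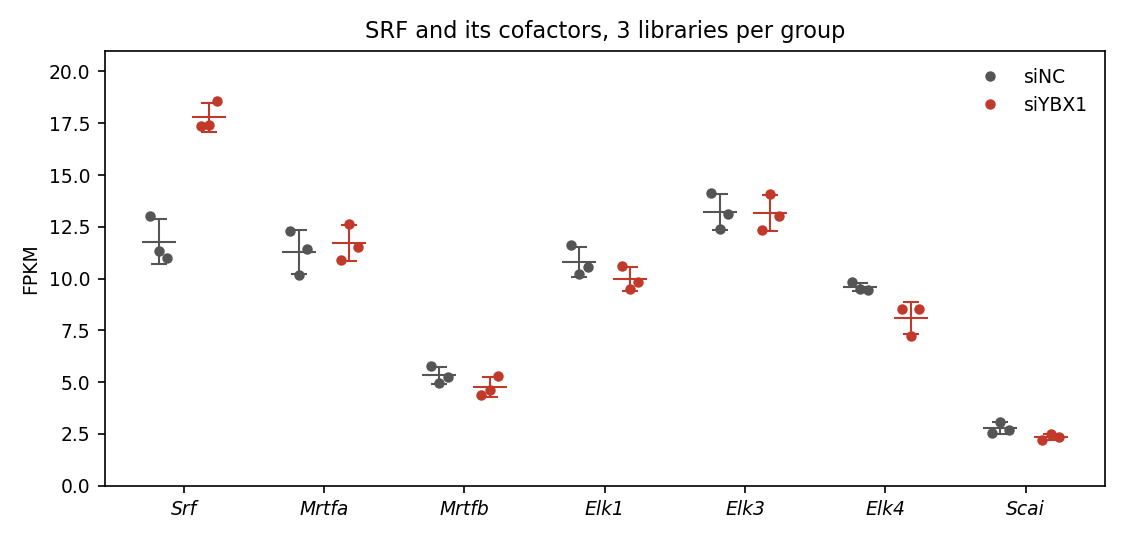
FPKM of the 7 genes in each of 3 siNC (grey) and 3 siYBX1 (red) libraries, with the mean (horizontal line) and SD (bars). Srf lies at 11.0 to 13.0 FPKM in siNC and at 17.3 to 18.6 FPKM in siYBX1, while the groups of Mrtfa, Mrtfb, Elk1 and Elk3 overlap.

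**Figure D2:**
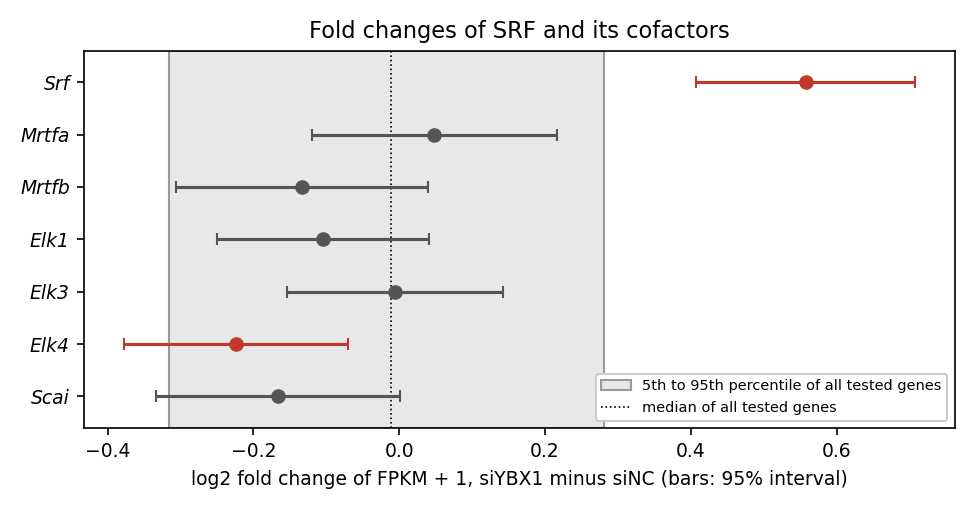
Log2 fold change of FPKM + 1 (siYBX1 minus siNC) with 95% intervals; red marks the 2 genes called in the fit across all genes, and the grey band holds the middle 90% of all tested genes. Srf, at 0.56, is the only one of the 7 outside the band.

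The order of the genes changed with the position of Srf. In siNC the order by mean FPKM was Elk3, Srf, Mrtfa, Elk1, Elk4, Mrtfb and Scai. The ranges of the first 4 overlapped from one neighbour to the next, and Elk4, Mrtfb and Scai were each apart from the gene above. In siYBX1 Srf came first, with its lowest library (17.3 FPKM) above the highest of Elk3 (14.1 FPKM). The other genes kept their order, and of these neighbours only Elk3 and Mrtfa overlapped.

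Levels within a library show how the balance between Srf and its cofactors differed. Srf stood at 0.722, 0.748 and 0.659 times the summed FPKM of Mrtfa and Mrtfb in siNC, and at 1.13, 1.01 and 1.10 times that sum in siYBX1. Against the summed FPKM of Elk1, Elk3 and Elk4 it stood at 0.366, 0.352 and 0.332 in siNC and at 0.550, 0.565 and 0.593 in siYBX1. Neither ratio overlapped between groups, which follows from the level of Srf itself. The MRTF sum over the ELK sum was 0.494 ± 0.0202 in siNC and 0.528 ± 0.0388 in siYBX1 (SD, n = 3 each), and these overlapped. Elk4 made up 28.6 ± 1.01% of the ELK sum in siNC and 25.9 ± 2.17% in siYBX1. The ELK sum itself was 33.6 ± 1.78 and 31.2 ± 0.380 FPKM (SD, n = 3 each), lower in all 3 siYBX1 libraries.

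**Figure D3:**
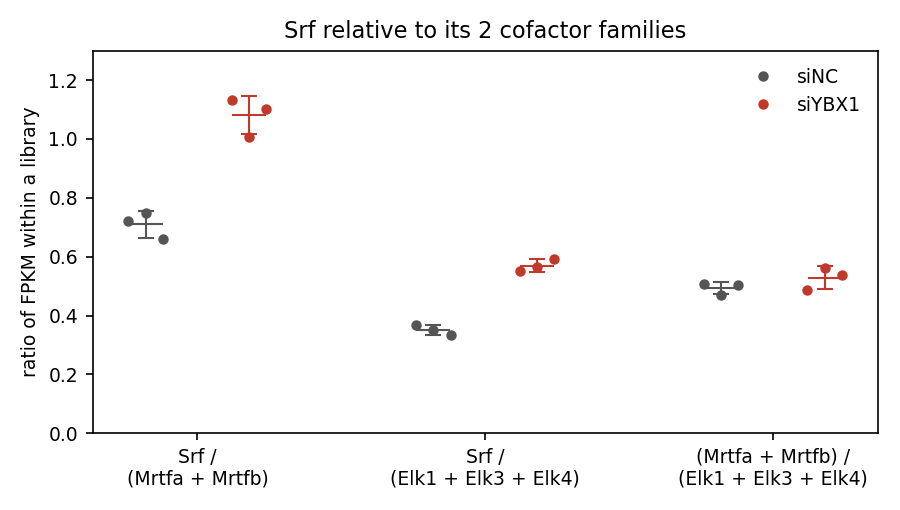
Ratios of FPKM within each library, for Srf over the summed MRTF genes, Srf over the summed ELK genes, and the MRTF sum over the ELK sum; points are libraries, lines are means and bars SD. Both Srf ratios are apart between siNC (grey) and siYBX1 (red), and the third overlaps.

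Known target genes of SRF were examined by the cofactor that drives them, from lists written with earlier results of these data in view. Of 30 targets of the MRTF and myocardin kind 27 were tested. Of these 23 rose and 1 fell in siYBX1 (limma across all genes, adjusted p below 0.05), against 9.54% and 11.1% of all tested genes. With Srf itself left out the count was 22 of 26, with 1 lower and a median log2 difference of 0.58, against -0.01 over all tested genes. Without siNC replicate 1 the counts over the whole list were 24 higher and 1 lower. Acta1, counted among the rises, averaged 0.447 FPKM in siNC. It reached the mean of 1 FPKM needed for testing only through its siYBX1 values. Tagln (transgelin, which binds actin filaments) stood at 9.17, 6.69 and 7.84 FPKM in siNC and at 50.6, 54.4 and 45.9 FPKM in siYBX1. Its log2 difference was 2.53 (SE 0.10, adjusted p = 2.61e-07, limma). The smooth muscle actin Actg2 measured 6.14, 5.31 and 6.96 FPKM in siNC against 26.8, 26.5 and 26.6 FPKM in siYBX1 (log2 difference 1.96, adjusted p = 2.61e-07, limma). The myosin light chain Myl9 measured 77.7, 92.3 and 98.9 FPKM in siNC against 321.7, 287 and 294 FPKM in siYBX1 (log2 difference 1.74, adjusted p = 1.17e-06, limma). For each of these 3 genes the groups were far apart.

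Not every gene of this list rose: Myh9, Fhl2 and Smtn were not called, and Actc1, Cnn1 and Myh11 lay below the filter of 1 FPKM. Actb, the cytoplasmic beta-actin and a classical SRF target, was the only gene of the list called lower. It fell from 1515, 1356 and 1402 FPKM in siNC to 1131, 1195 and 1162 FPKM in siYBX1 (log2 difference -0.29, SE 0.07, adjusted p = 0.0164, limma). The call was lost without siNC replicate 3 (-0.30), without siYBX1 replicate 1 (-0.27) and without siYBX1 replicate 2 (-0.31), as well as in 2 other of 14 alternatives. The direction was lower in all 14. Actin genes are similar in sequence, and how reads shared between them were counted is not given in the sources used here.

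Of 13 targets of the ternary complex factor kind, 7 were tested, and Srf was the only one called higher. Among the other 6 none rose (0 at an unadjusted p below 0.05 in limma, and 0 with voom on recovered reads). Of these 6 genes 2 fell, and the median log2 difference was 0.01. Over all tested genes 9.54% were called higher and 11.1% lower, so counts among 6 genes say little. Egr1, an immediate early zinc finger factor, measured 13.1, 14.6 and 13.3 FPKM in siNC against 10.5, 9.01 and 11.9 FPKM in siYBX1 (log2 difference -0.36, adjusted p = 0.0154, limma). Its groups did not overlap, and its call was lost without siYBX1 replicate 2 (-0.27) and with no filter. The orphan nuclear receptor Nr4a1 measured 4.20, 3.28 and 3.27 FPKM in siNC against 2.47, 2.82 and 2.75 FPKM in siYBX1 (log2 difference -0.31, adjusted p = 0.0297, limma). That call was lost in 7 of 14 alternatives, among them the omission of siNC replicate 1 (-0.22) and of each siYBX1 library (-0.34 to -0.27). Fos, Fosb, Egr2, Egr3, Egr4 and Arc lay below the filter of 1 FPKM, so the list speaks for few immediate early genes. Whether the 2 kinds of target differ was not tested.

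**Figure D4:**
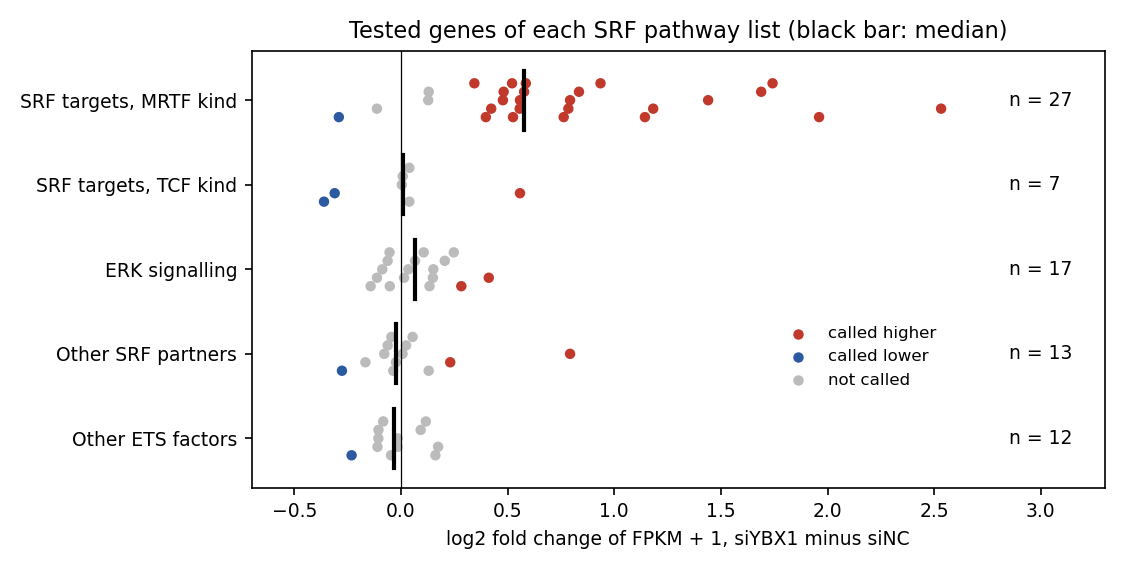
Log2 fold change of FPKM + 1 (siYBX1 minus siNC) of the tested genes of 5 lists; red points were called higher, blue points lower and grey points not, and black bars are medians. The MRTF kind of SRF target has 23 of 27 points in red, and the TCF kind, which stands for ternary complex factor, has 1 of 7, Srf.

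The smooth muscle markers did not move as a set. The 8 markers of the list summed to 524 to 574 FPKM in siNC and to 1738 to 1807 FPKM in siYBX1, mostly Acta2. Of 5 tested 3 were called higher, against 9.54% of all tested genes. Those 3, Acta2, Tagln and Lmod1, are on the target list as well, as are Smtn, Cnn1 and Myh11. The lists are thus not separate measurements. The other 2 tested markers did not pass: Smtn (smoothelin) stood at 9.59 ± 0.978 FPKM in siNC and 8.77 ± 0.309 FPKM in siYBX1, and Des (desmin) at 4.41 ± 0.640 and 3.94 ± 0.660 FPKM (SD, n = 3 each). The remaining 3 of the 8 lay near 0 in every library: Myh11, the smooth muscle myosin heavy chain, was at most 0.142 FPKM, Cnn1 at most 0.140 FPKM and Myocd, the cofactor that drives that fate, at most 0.0138 FPKM. Skeletal and cardiac markers summed to at most 1.88 FPKM, most of it Tnnt2 and Tnnt3. Of the 4 endothelial markers Pecam1, Kdr and Tek were below 0.1 FPKM in every library, while Egfl7 stood at 19.9 ± 2.76 FPKM in siNC and 17.4 ± 1.13 FPKM in siYBX1 (SD, n = 3 each) and was not called. The macrophage and leukocyte markers Ptprc, Adgre1, Csf1r and Lyz2 were at most 0.106 FPKM in every library. Cd68 of that list stood at 15.97 ± 7.33 FPKM in siNC and 9.13 ± 2.17 FPKM in siYBX1 (SD, n = 3 each), with overlapping groups. Its siNC values were 24.3, 10.8 and 12.8 FPKM in replicates 1 to 3. Cd14 stood at 5.39 ± 0.550 and 5.68 ± 1.11 FPKM. The progenitor marker Ly6a stood at 491 ± 10.3 and 449 ± 12.1 FPKM and Pdgfrb at 37.4 ± 1.01 and 34.0 ± 1.11 FPKM, neither of them called. The bone and cartilage factors Runx2 and Sox9, with group means under 5 FPKM, were called lower, while Sp7, Bglap and Col2a1 lay below the filter. The Sox9 call is near the threshold (adjusted p = 0.0449, limma), and siNC replicate 1 was its highest library (5.97 FPKM). In such bulk libraries more cells of a type and more RNA per cell cannot be told apart, and the part of either in the target values was not tested.

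Several listed target genes carry an exact CArG box in the promoter window, and those of the genes called higher are shown to set beside that of Srf. Each line gives 50 bases (GRCm38.p6, from RefSeq), 5′ to 3′, with the box in capitals.
Myl9 (chr2:156775283-156775332, plus strand): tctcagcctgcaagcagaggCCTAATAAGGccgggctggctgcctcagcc
Acta1 (chr8:123894819-123894868, minus strand): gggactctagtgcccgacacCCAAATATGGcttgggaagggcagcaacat
Fhl1 (chrX:56779561-56779610, plus strand): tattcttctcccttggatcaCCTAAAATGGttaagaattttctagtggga
Vcl (chr14:20929151-20929200, plus strand): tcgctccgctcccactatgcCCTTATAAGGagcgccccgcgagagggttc
Cnn2 (chr10:79988524-79988573, plus strand): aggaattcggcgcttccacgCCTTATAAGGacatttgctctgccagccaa
Actg1 (chr11:120348556-120348605, minus strand): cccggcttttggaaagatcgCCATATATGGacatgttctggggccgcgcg

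Of the 23 MRTF-kind targets with a promoter entry, 9 held an exact box (39.1%), against 1.81% of all 27025 genes with one. Among those of the 23 that were called higher, 7 of 18 held a box (38.9%), nearly the share of the whole list. Acta2, with a ratio of 3.23, was among the called genes without one. The list is made of known SRF targets, so these shares describe the list and are no finding of these libraries. The genes shown differed widely in how far they moved. Vcl (vinculin), with its box 227 bases before the start, went from 153 ± 4.28 to 226 ± 9.33 FPKM (SD, n = 3 each), a ratio of 1.47 close to the 1.51 of Srf. Cnn2, a calponin of non-muscle cells, had a ratio of 1.44, and Fhl1, a LIM-domain protein, 1.53. Acta1, the skeletal muscle actin, had a ratio of 5.00 at a low level (0.447 ± 0.226 and 2.24 ± 0.779 FPKM). It passed the filter of 1 FPKM only through siYBX1, so its being tested depended on its rise. Fhl2, a LIM-domain partner of SRF with a box in each of 2 windows, was not called (log2 difference 0.13, adjusted p = 0.243, limma). Tagln, Actg2 and Actb were among 11 genes of the target lists with no promoter window in the RefSeq table, so they were not searched for a box.

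**Figure D5:**
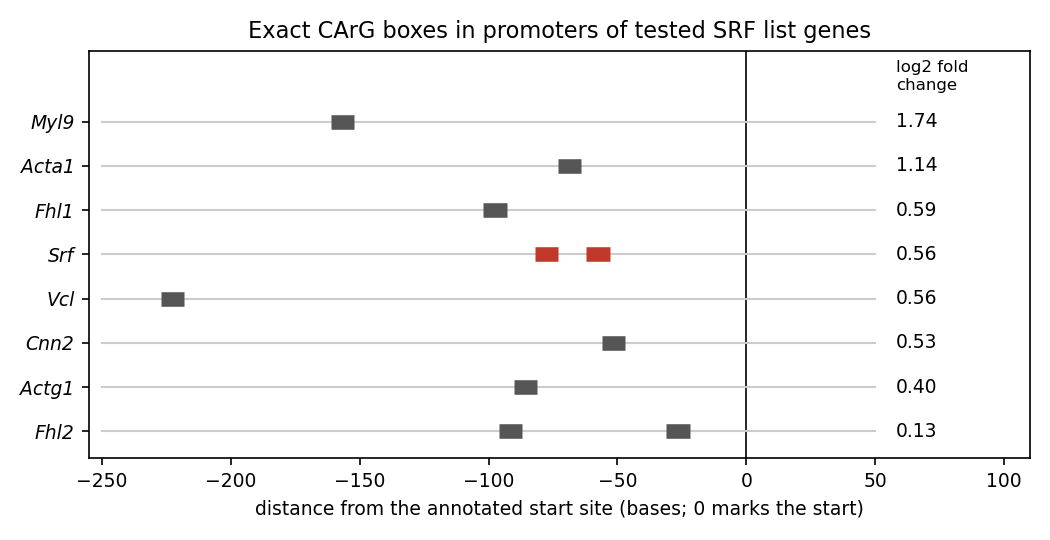
Position of each exact CArG box (blocks) in the promoter windows (grey lines, 250 bases before to 50 after the start) of tested genes of the SRF target lists, with the gene's log2 fold change at the right. Srf (red) has boxes 82 and 62 bases before its start, and Myl9 has 1 at 161 bases; the order is by log2 fold change of FPKM + 1, which shrinks the change of the low Acta1.

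Of 17 tested genes of the ERK route, which acts on the ternary complex factors, 2 rose and none fell (limma), with a median of 0.07. Over all tested genes 9.54% were called higher and 11.1% lower, and the count of 2 rises is near that share. At an unadjusted p below 0.05 (limma) the counts were 7 higher and 1 lower. Over all 10341 tested genes they were then 1781 and 1969, a smaller share of rises, and the difference was not tested. With voom 3 were higher and 0 lower. The Ras gene Nras went from 13.5 ± 0.307 to 18.3 ± 0.390 FPKM (SD, n = 3 each; log2 difference 0.41, adjusted p = 0.000638, limma), and its groups did not overlap. Dusp6, a phosphatase that turns ERK off, measured 4.71, 5.77 and 5.25 FPKM in siNC against 6.33, 6.57 and 6.83 FPKM in siYBX1 (0.28, adjusted p = 0.0208). The Dusp6 call was lost with no filter, and without siNC replicate 3 (0.29), siYBX1 replicate 2 (0.28) or siYBX1 replicate 3 (0.26). After the correction for gene length 6 genes of this list were called higher, and 1079 of all 10341 tested genes.

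Of 13 tested genes of other partners and antagonists of SRF 2 rose and 1 fell, with a median of -0.02. Over all tested genes 20.6% were called in either direction, so this count is near the background. The LIM-domain gene Csrp1, whose product bridges SRF and GATA factors and which is also a target, measured 118, 118 and 123 FPKM in siNC against 208, 205 and 211 FPKM in siYBX1 (log2 difference 0.79, adjusted p = 8.26e-06, limma). Its relative Csrp2 rose from 57.2 ± 5.09 to 67.1 ± 1.57 FPKM (0.23, adjusted p = 0.0318), a call lost in 7 of 14 alternatives, among them the omission of each siYBX1 library (0.22 to 0.25). The acetyltransferase gene Ep300 fell from 13.1 ± 1.70 to 10.6 ± 0.946 FPKM (-0.28, adjusted p = 0.0487). Its call was lost in 9 of 14, and without siNC replicate 1, its highest library, the difference was -0.18. Without siNC replicate 3, siYBX1 replicate 1 or siYBX1 replicate 2 it was lost as well, at -0.32, -0.26 and -0.23. Myocd, Hopx and Nkx2-5 lay below the filter. Of 12 tested ETS-domain genes outside the ELK group none rose (limma; 2 at an unadjusted p below 0.05, and 1 with voom), and Etv3 was called lower (-0.23, adjusted p = 0.0312). The Etv3 call was lost in 7 of 14 alternatives. Among them were the omission of siNC replicate 1 (-0.21), siNC replicate 3 (-0.22), siYBX1 replicate 1 (-0.21) and siYBX1 replicate 2 (-0.24). With quantile normalization 1 gene of this ETS list was called higher and 0 lower, and after the length correction 1 higher and 1 lower.

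Srf was compared with 7341 genes whose mean reached 5 FPKM, with Gm and Rik symbols left out. The genes most like Srf in their pattern over the 6 libraries were sought by Pearson correlation of log2(FPKM + 1). They were Wnk4, a kinase of ion transport, Axl, a receptor tyrosine kinase, Flna, the actin crosslinker filamin A, Col4a2, a basement membrane collagen chain, and Palld, the actin-associated palladin. Their correlations were 0.998, 0.997, 0.997, 0.996 and 0.995. All were called higher, with log2 differences from 0.23 for Wnk4 to 0.61 for Palld, and Flna belongs to the MRTF target list. The same 6 libraries and their 2 groups underlie every such value, so any gene higher in siYBX1 with little spread scores high. For Elk3, the most abundant of the other members, they were Eri3, Dipk2a and Uvrag (0.979 each), none of them called.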

How the data were processed

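RNA sequencing libraries of 3 siNC and 3 siYBX1 samples were analysed, with 1.3 µg of total RNA in each preparation, per the labels' protocols. Per the submitters' processing notes, the tools were fastp, HISAT2 and HTSeq and the build was GRCm39. The expression values the authors deposited are FPKM in a single table, whose columns were matched to samples by name and number (con for control siRNA, si for siRNA against Ybx1). Strandedness and the handling of reads shared between genes are not given in the sources used here.

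Values were tested as log2(FPKM + 1) where a gene averaged 1 FPKM or more, with limma 3.58.1 (R 4.3.3) and its intensity trend. It was two-sided and adjusted by Benjamini-Hochberg over all tested genes, with a threshold of 0.05. Fold changes given as log2 come from this fit, and ratios are ratios of mean FPKM. Whole reads were recovered for 16422 of 16423 genes, within 0.02 reads, from library totals matched on gene spans; a mean of 10 reads was the minimum for voom. The fit was checked on simulated data. The members and lists were chosen with earlier results of these data known. Named were all members, and of each list the 3 largest called rises and falls (or its 2 most abundant genes). At least 2 markers of each cell type and the genes most like Srf and Elk3 were named too. Genes with CArG boxes were added for their promoters, and others to show the rest of a list. Alternatives were a pseudocount of 0.1, no filter, TPM, quantile normalization, a replicate block, no trend and each library left out. Chosen after seeing the data were voom and a correction for gene length (loess, span 0.3). Scripts ran in Python 3.11.15. A further gene list is not reported here.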

Additional observations from a re-analysis of the deposited data

How the results depend on the processing

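Srf was called higher in all 14 alternatives, with log2 differences between 0.51 and 0.63, and no named gene changed direction while called. The count of called members fell from 2 to 1 with no filter, with quantile normalization, with the replicate block, after the length correction and without each library in turn (1 in each), since Elk4 was lost. The count over all genes was 1241 with no filter, 1346 with the replicate block and 1201 to 2026 with a library left out. Leaving out a library gave 1 to 3 calls in the ERK list, 1 to 3 among other partners, 1 to 3 among ternary complex factor targets and 0 to 1 among other ETS factors. With no filter there was 1 call in the ERK list, 1 among ternary complex factor targets and 0 among other ETS factors (limma, 6 at an unadjusted p below 0.05). With quantile normalization, the replicate block and the length correction there was 1 call each among other partners. The length correction gave 6 calls in the ERK list and 2 among other ETS factors, where voom also gave 2 and the replicate block 0 (limma, 1 at an unadjusted p below 0.05). The cause was not tested.

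The labels give both groups replicate numbers 1 to 3, but same-numbered libraries did not deviate together: the correlations of their deviations were -0.31, -0.13 and -0.25. The samples share only a number, and no library correlated best with its own. The FPKM scale rests on 31957411 to 35410308 reads per library, which limits genes below the filter, such as Fos and Myocd.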

Other observations

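Exact CArG boxes were also counted in the promoters of every tested gene with a window in the RefSeq table (8357 genes). Of all these 131 held one (1.57%). Of the 806 genes called higher in siYBX1 27 held one (3.35%), of the 928 called lower 8 (0.862%), and of the 6623 not called 96 (1.45%). Among the 788 genes called higher outside the SRF target lists 20 held one (2.54%). Shares outside the lists were not computed for genes called lower or not called. These shares were computed after the calls were known and are given with no test. Of the shortest of 5 length groups 18.9% of genes were called higher, against 3.48% of the longest. The part of gene length in these shares was not tested. Windows cover only the 300 bases around a start site, so boxes elsewhere were not counted.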
